A study of Homo sapiens with 8 samples.

Results

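Eph receptors form the largest family of receptor tyrosine kinases, and the ephrins are their membrane-bound ligands. The genes described here are 10 members of this family, namely the receptors EPHA2, EPHA3, EPHA4, EPHA7, EPHB2, EPHB3 and EPHB4 and the ligands EFNA1, EFNB1 and EFNB2. They were taken by gene symbol, with all array probes of each gene, and 9 of the 10 matched 12 probes, out of 20046 genes with a probe of a single symbol. No probe carried the symbol EPHB2, which was not analysed here. RNA was measured on 8 Illumina HumanHT-12 arrays. All came from A204, a human malignant rhabdoid tumor (MRT) line that has lost SMARCB1, which belongs to the SWI/SNF complex that remodels chromatin, so every group shares this loss. Parental A204 cells without drug had 2 arrays, labelled replicates 1 and 2, and parental cells given a tyrosine kinase inhibitor (TKI) at 5 µM, either dasatinib, pazopanib or sunitinib, had 1 array each. The dasatinib-resistant (DasR), pazopanib-resistant (PazR) and sunitinib-resistant (SunR) sublines had 1 array each. They had been selected in stepwise rising doses and were harvested in 5 µM of their own drug. The labels do not give the time that parental cells spent in drug, do not say whether a subline was 1 clone, and call the controls drug-free where the paper names a vehicle.

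Ephrins and Eph receptors signal where cells touch. A-type ephrins are held on the membrane by a lipid anchor and B-type ephrins span it, and each class binds mainly the receptors of its own letter, with EPHA4 known to bind both. The receptor passes a forward signal that can move cells apart or together, while the ephrin can send a reverse signal into its own cell. EPHB4 and EFNB2 are best known from the border between veins and arteries. EPHA2 and EFNA1 are best known from epithelial and tumor cells, and EPHA2 is among the kinases that dasatinib binds.

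For 48107 probes the table held log2 signals, quantile normalized to a common median (6.67). Precision here is set by how few arrays there are. Arrays within the treated parental group and within the sublines differ by drug, so their spread includes the difference between drugs and no drug has a second array. For the untreated pair the labels do not tell whether the arrays stem from separate cultures, so the spread of that pair may be technical. SunR had 177 probes over 1 log2 unit above all 7 other arrays, against 36 for DasR and 9 for PazR, and over 1 below them DasR had 86, SunR 22 and PazR 5. Correlation over all probes placed untreated replicate 1 closer to the sublines (mean r = 0.982) than to treated parental cells (0.970), and untreated replicate 2 the other way round (0.969 and 0.979), so both untreated values are given for members that were not dim and for the partner probes that passed. Markers of endothelial (4 genes), epithelial (3), leukocyte (2) and myogenic (3) cells all had a mean over the 8 arrays below that of SMARCB1, and among 4 mesenchymal markers VIM and CD44 did not. The brightest probe of SMARCB1, a gene that these cells lack, averaged 6.82, and a probe whose mean was below this level is called dim here. A dim signal is no evidence of expression. Of the 12 member probes, 6 were dim.

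EPHB4, a receptor for B-type ephrins, was lower in the resistant sublines than in parental cells under the same TKIs, and it was the sole member to pass the test. It was also the brightest member by percentile, with a mean signal at percentile 92.6 of all probes. Its single probe (ILMN_2214910) read 9.72 and 9.83 in untreated replicates 1 and 2. Parental cells read 10.99 in dasatinib, 10.77 in pazopanib and 10.44 in sunitinib, so all 3 treated arrays stood above both untreated arrays. DasR read 9.41, PazR 9.27 and SunR 9.75, below every treated parental array and next to the untreated ones, with which they overlapped. The groups ranked as treated parental (10.73 ± 0.28, SD, n = 3), untreated (9.77 ± 0.08, SD, n = 2) and sublines (9.48 ± 0.25, SD, n = 3), where the last 2 did not differ beyond their spread.

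Sublines minus treated parental cells gave -1.26 for EPHB4 (log2, SE 0.24, 95% interval -1.79 to -0.73, limma adjusted p = 0.0119, n = 3 and 3), a 2.39-fold difference. Among all probes 3.33% passed lower and 6.04% passed in either direction, and among the 12 member probes 1 passed (8.33%), a share near that of all probes. EPHB4 ranked 402 of 48107 from the lowest change. These shares and this rank are over all probes, dim ones included. With the brighter 50% of probes tested alone 3424 passed, against 2906 of the whole table, so calls were more common among bright probes. An exact two-sided permutation test over the 20 assignments of the 6 arrays gave p = 0.1, the smallest that 3 against 3 can give. Every probe whose groups do not overlap gets this value, as do 25.6% of all probes and also EPHA2 and EPHA4. It therefore adds nothing to the lack of overlap. Leaving out dasatinib-treated parental cells ended the EPHB4 call (change -1.13, adjusted p = 0.0796), as did leaving out pazopanib-treated ones (-1.24, adjusted p = 0.0688) or PazR (-1.15, adjusted p = 0.0633), and it held without each of the other 3 arrays. It also ended, at -1.15 (SE 0.48, adjusted p = 0.973), with a term that set sublines with untreated replicate 1 and treated parental arrays with replicate 2, a term that only the difference between the untreated arrays separates from the comparison. The arrays measured RNA pooled over cells, so that fewer cells with a transcript and less of it per cell cannot be told apart.

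The higher EPHB4 signal of treated parental cells did not pass when set against untreated cells. The difference was 0.96 (log2, SE 0.27, 95% interval 0.39 to 1.54, limma adjusted p = 0.177, n = 3 and 2). Per drug, parental cells stood above the untreated mean by 1.22 in dasatinib, 1.00 in pazopanib and 0.66 in sunitinib, while the untreated arrays differed from each other by 0.11. Sublines minus untreated cells gave -0.30 (SE 0.27, 95% interval -0.87 to 0.28, adjusted p = 0.856). Both differences share the untreated arrays.

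**Figure D1:**
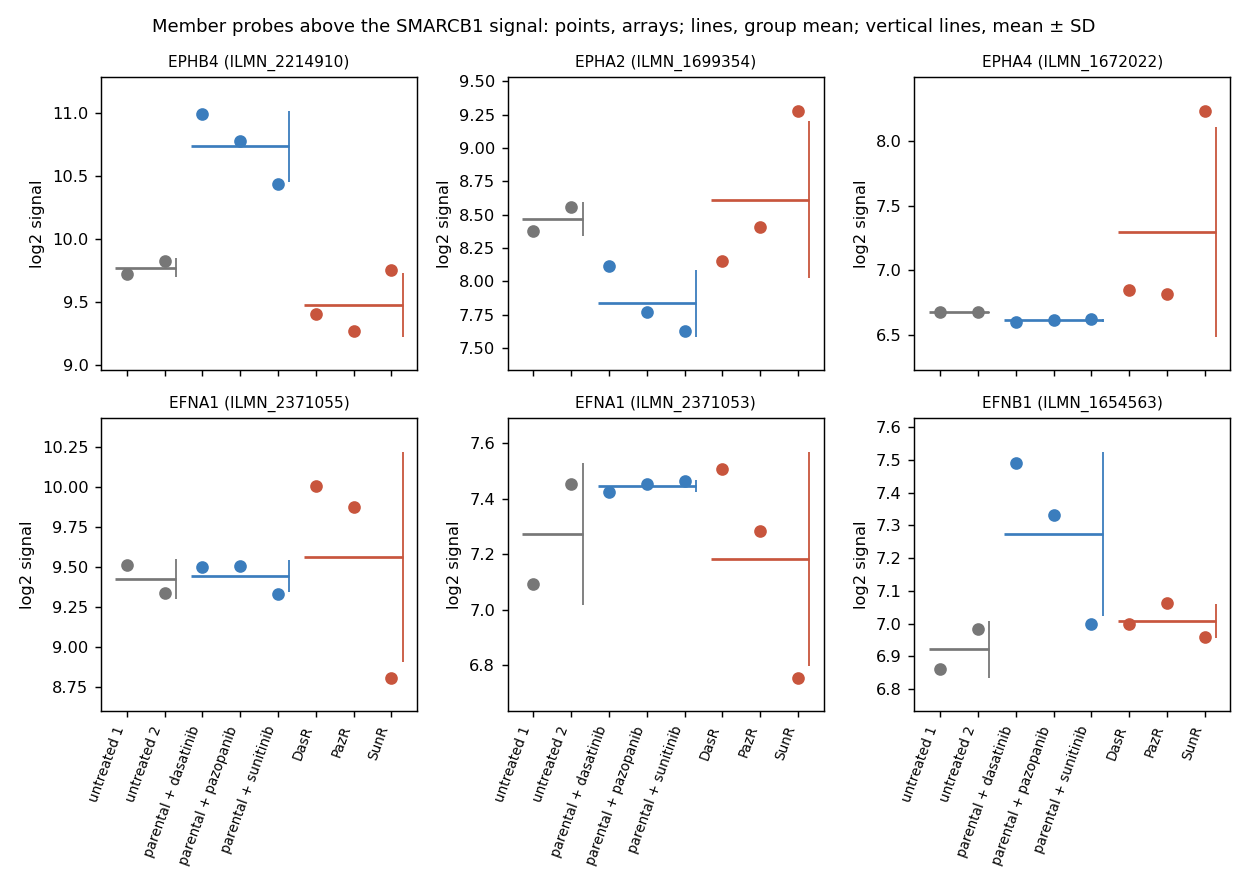
Log2 signal (y axis, a separate range in each panel) in each of the 8 arrays (x axis) for the 6 member probes that were not dim. Points are arrays, horizontal lines group means and vertical lines the mean ± SD of a group. The 3 treated parental arrays of EPHB4 sit between 10.44 and 10.99, above all other arrays, and SunR is the highest array for EPHA2 and EPHA4 and the lowest for both EFNA1 probes.

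The 250 bases before the RefSeq start of EPHB4 are shown because EPHB4 carried the one call of the family. They lie on the minus strand of GRCh38.p14 at chr7:100827524-100827773 and are 72.8% G and C. Capitals here and in the later sequences mark matches, on either strand, to 7 motifs, namely the GC box GGGCGG, the CCAAT box CCAAT, the cAMP response element TGACGTCA, the E box CACGTG, the AP-1 site TGANTCA, the FOXO site GTAAACA and the TATA box TATAAA.
EPHB4: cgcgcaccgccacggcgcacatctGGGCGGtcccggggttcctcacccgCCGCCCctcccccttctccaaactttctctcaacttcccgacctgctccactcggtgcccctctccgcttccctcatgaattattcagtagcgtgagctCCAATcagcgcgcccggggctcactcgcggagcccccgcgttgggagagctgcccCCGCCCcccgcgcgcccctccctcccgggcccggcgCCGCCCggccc
EPHB4 had 4 GC boxes and 1 CCAAT box in this window. Of 35116 windows of the same length in the RefSeq table, 42.6% held a GC box and 32.0% a CCAAT box. Matches are letters in a window and not binding sites.

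EPHA2, a receptor for A-type ephrins, read higher in the sublines than in treated parental cells without passing the test. The EPHA2 probe (ILMN_1699354) read 8.37 and 8.56 in untreated replicates 1 and 2. It read 8.11 in parental cells in dasatinib, 7.77 in pazopanib and 7.62 in sunitinib, below both untreated arrays in each drug. DasR read 8.15, PazR 8.41 and SunR 9.28, so the sublines and treated parental cells did not overlap, although DasR lay only 0.04 above its own parental array. Sublines minus treated parental cells gave 0.78 (log2, SE 0.27, 95% interval 0.18 to 1.37, limma adjusted p = 0.126, n = 3 and 3), and 0.44 without SunR. Treated minus untreated parental cells gave -0.63 (SE 0.29, 95% interval -1.26 to 0.01, adjusted p = 0.408). The groups ranked as sublines (8.61 ± 0.59, SD, n = 3), untreated (8.46 ± 0.13, SD, n = 2) and treated parental cells (7.84 ± 0.25, SD, n = 3), and the first pair overlapped.

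EPHA4, the receptor that binds ephrins of both classes, was near the SMARCB1 level in every array except SunR. Its probe (ILMN_1672022) read 6.67 and 6.68 in untreated cells and 6.60 to 6.62 in treated parental cells. DasR read 6.85, PazR 6.81 and SunR 8.24, and SunR alone stood clear of the dim level. The sublines did not overlap with either parental group, but the mean difference of 0.69 from treated parental cells (SE 0.29, 95% interval 0.04 to 1.33, limma adjusted p = 0.214, n = 3 and 3) was 0.22 without SunR. Against untreated cells it was 0.62 (adjusted p = 0.709), and 0.15 without SunR. The EPHA4 probe passed the dim level only through SunR, and the parental arrays all read below that level, so these differences are not the size of a change in EPHA4.

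The upstream windows of EPHA2 and EPHA4 are shown for comparison with EPHB4, since these receptors read highest in SunR and EPHB4 did not. EPHA2 lies on the minus strand at chr1:16156070-16156319 (GRCh38.p14, 63.2% G and C). EPHA4 has a pair of RefSeq starts on the minus strand, with windows at chr2:221574203-221574452 (43.2% G and C) and chr2:221572305-221572554 (78.0% G and C).
EPHA2: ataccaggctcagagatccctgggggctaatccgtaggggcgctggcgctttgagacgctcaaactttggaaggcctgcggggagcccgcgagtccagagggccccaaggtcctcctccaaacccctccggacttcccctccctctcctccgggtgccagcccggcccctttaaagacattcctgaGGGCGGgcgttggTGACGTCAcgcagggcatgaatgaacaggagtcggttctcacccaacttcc
EPHA4 upper start: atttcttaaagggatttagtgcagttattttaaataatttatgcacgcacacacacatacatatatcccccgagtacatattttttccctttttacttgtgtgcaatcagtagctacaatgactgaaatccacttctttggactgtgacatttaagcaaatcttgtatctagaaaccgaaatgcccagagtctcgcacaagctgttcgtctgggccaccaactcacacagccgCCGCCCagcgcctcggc
EPHA4 lower start: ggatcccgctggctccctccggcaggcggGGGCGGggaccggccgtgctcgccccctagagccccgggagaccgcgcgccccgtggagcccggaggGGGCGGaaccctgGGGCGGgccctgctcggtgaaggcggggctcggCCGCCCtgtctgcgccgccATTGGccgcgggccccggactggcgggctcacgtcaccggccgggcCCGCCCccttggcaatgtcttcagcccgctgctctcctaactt
EPHA2 had 1 GC box and 1 cAMP response element, a motif in 1.65% of all windows. EPHA4 had 1 GC box before the upper start, and 5 GC boxes and 1 CCAAT box before the lower one. Over the 14 windows of the 10 members, 13 held a GC box, 6 a CCAAT box, 2 a TATA box and 1 a cAMP response element. A TATA box was in 10.7% of all windows. The windows of EPHB2 overlapped almost wholly and some of EPHA7 in part, so the 14 windows are not all separate sequences. None of the 14 held the E box, the AP-1 site or the FOXO site, which 6.34%, 6.57% and 2.98% of all windows held. Matches to different motifs overlapped only in EPHB3, in 1 place.

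EFNA1, an A-type ligand with a high affinity for EPHA2, did not separate the groups, but the sublines differed among themselves. The brighter EFNA1 probe (ILMN_2371055) read 9.51 and 9.34 in untreated replicates 1 and 2, and 9.50, 9.51 and 9.33 in parental cells under dasatinib, pazopanib and sunitinib. DasR read 10.002, PazR 9.87 and SunR 8.81, so that DasR and PazR were the highest of the 8 arrays and SunR the lowest, by 0.52. A second probe (ILMN_2371053) read 7.09 and 7.45 in untreated cells and 7.42 to 7.46 in treated parental cells. In the sublines it read 7.51 in DasR, 7.28 in PazR and 6.75 in SunR, with SunR again lowest, by 0.34. Sublines minus treated parental cells gave 0.12 for the brighter probe (95% interval -0.55 to 0.79, limma adjusted p = 0.877, n = 3 and 3) and -0.26 for the other (95% interval -0.64 to 0.11, adjusted p = 0.422), with opposite signs. SunR was thus the array with the highest EPHA2 and the lowest EFNA1 signal, a description from 1 array without a test.

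EFNB1, a transmembrane ligand of EphB receptors, read 6.86 and 6.98 in untreated replicates 1 and 2. The EFNB1 probe (ILMN_1654563) read 7.49 in parental cells in dasatinib, 7.33 in pazopanib and 6.999 in sunitinib. DasR read 6.9997, PazR 7.06 and SunR 6.96, close to the untreated arrays and partly overlapping with the sunitinib array. Its order of groups was that of EPHB4 at the top, with treated parental cells highest (7.27 ± 0.25, SD, n = 3), and the sublines (7.01 ± 0.05, SD, n = 3) and untreated cells (6.92 ± 0.09, SD, n = 2) overlapped. Sublines minus treated parental cells gave -0.27 (log2, SE 0.13, 95% interval -0.55 to 0.02, limma adjusted p = 0.276). Without the parental array in sunitinib this became -0.40 with an adjusted p = 0.0493, on the other side of the threshold. Treated minus untreated parental cells gave 0.35 (SE 0.14, 95% interval 0.05 to 0.66, adjusted p = 0.329, n = 3 and 2).

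The other 4 members with probes were dim. EPHA3 and EPHA7, receptors for A-type ephrins, EPHB3, a receptor for B-type ephrins, and EFNB2, the B-type ligand of EPHB4, read between 6.26 and 6.75 in all arrays over their 6 probes. EFNB2 read 6.66 in SunR and 6.28 to 6.48 in the other arrays. The 3 EPHA3 probes differed between sublines and treated parental cells by 0.09, -0.10 and 0.01. No signal of EPHA3, EPHA7, EPHB3 or EFNB2 could thus be told from that of a lost gene, so their ratios were not measured here.

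**Figure D2:**
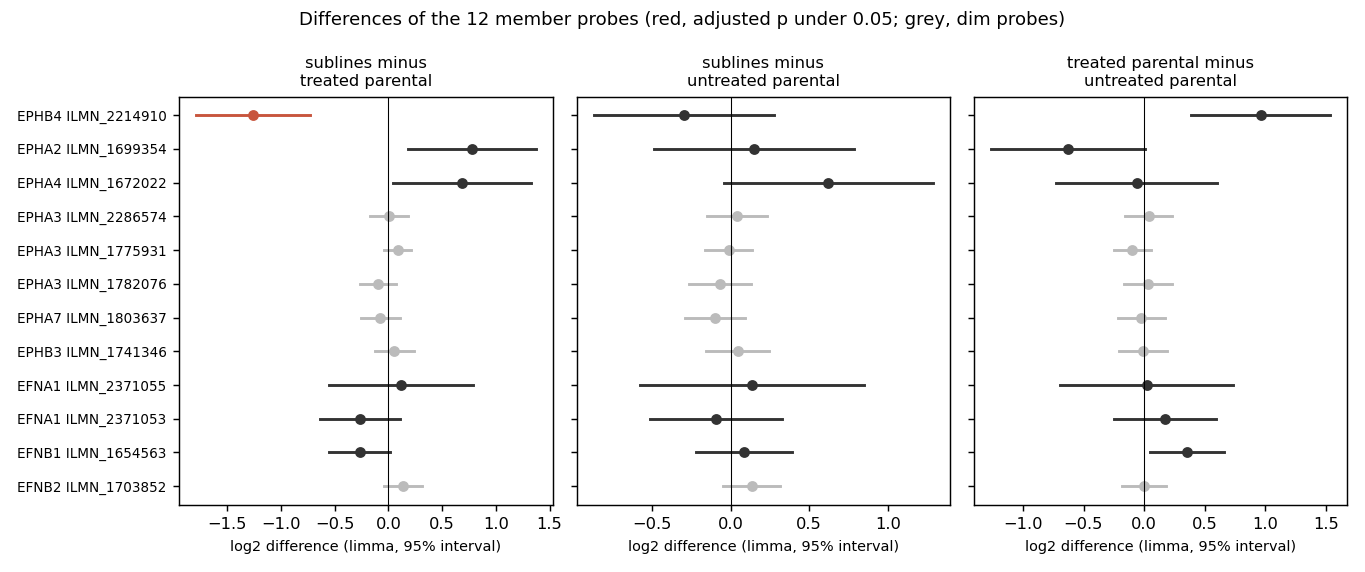
Log2 differences (x axis) of the 12 member probes (y axis) in 3 comparisons between groups, with 95% intervals from limma. Red marks an adjusted p under 0.05, dark grey probes that did not pass and light grey dim probes. EPHB4, at -1.26 between sublines and treated parental cells, is the one red probe.

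Counts over the members were close to those of all probes. Between sublines and treated parental cells, 3 of the 12 member probes had groups that did not overlap (25.0%, EPHB4 lower, EPHA2 higher and EPHA4 higher from parental arrays below the dim level), against 25.6% of all probes, and the same 3 had an unadjusted p under 0.05, against 20.5% of all probes. Between treated and untreated parental cells no member passed in limma, beside 0.00416% of all probes. An unadjusted p under 0.05 was found for EPHB4 and EFNB1 there, 2 of 12, beside 12.4% of all probes. Groups did not overlap for 4 of 12 (33.3%, EPHB4 and EFNB1 higher, EPHA2 lower and EPHA4 lower with all 5 arrays below the dim level), beside 28.7%. Between sublines and untreated cells no member passed in limma, beside 0.276% of all probes, and 0 of 12 had an unadjusted p under 0.05, beside 7.26%. Groups did not overlap there for 3 of 12 (25.0%, EPHA4, again from untreated arrays below the dim level, and the dim EFNB2 higher and the dim EPHA7 lower), beside 23.4%. The median change over the brightest probes of the 9 genes was 0.05 between sublines and treated parental cells, 0.09 between sublines and untreated cells and 0.00 between treated and untreated parental cells. The corresponding medians over 20046 genes were 0.00, 0.00 and 0.00.

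Within each drug, a subline was set against parental cells in the same drug, with 1 array on each side and no test. DasR minus parental cells in dasatinib was -1.58 for EPHB4, and PazR minus parental cells in pazopanib was -1.51. SunR minus parental cells in sunitinib was -0.68 for EPHB4, from the lowest treated parental array to the highest subline. EPHA2 differed by 0.04 for DasR, 0.64 for PazR and 1.65 for SunR. For EPHA4 the parental arrays were below the dim level, and SunR alone stood clearly above it, at 8.24, so the EPHA4 differences have no measured size. The brighter EFNA1 probe differed by 0.50, 0.37 and -0.52, and EFNB1 by -0.49, -0.27 and -0.04. The second EFNA1 probe differed by 0.08, -0.17 and -0.71, so the EFNA1 probes had opposite signs in PazR and were both lower in SunR. A difference over 1 in either direction was found for EPHB4 in DasR and PazR, and for EPHA2 in SunR. Of all probes, dim ones included, 4.43%, 3.37% and 3.49% had such a difference for DasR, PazR and SunR. EPHA4 also crossed 1 in SunR, but from a parental array below the dim level, so it is not read as a change of that size. The gap between the untreated replicates was 0.11 for EPHB4, 0.18 for EPHA2, -0.17 for the brighter EFNA1 probe, 0.36 for the second EFNA1 probe and 0.12 for EFNB1.

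**Figure D3:**
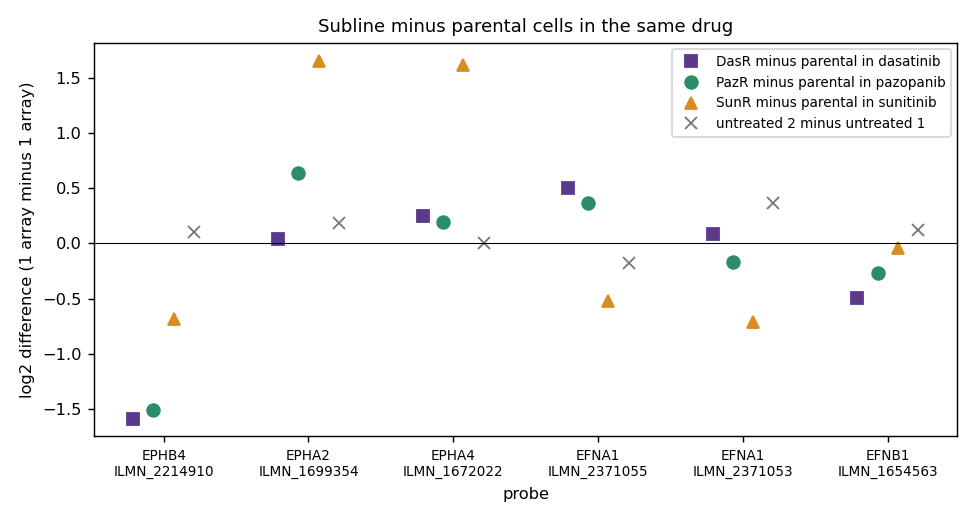
Log2 difference between a subline and parental cells in the same drug (y axis) for the 6 member probes that were not dim (x axis), with 1 array minus 1 array for each symbol and the difference between the untreated replicates as crosses. EPHB4 is below 0 for all 3 drugs, at -1.58, -1.51 and -0.68, and EPHA2 reaches 1.65 in SunR. EPHA4 is drawn against parental arrays below the dim level.

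The remaining 12 genes of the family had 24 probes, and none passed in any of the 3 comparisons. At an unadjusted p under 0.05 limma gave 2 of the 24 probes between sublines and treated parental cells (20.5% of all probes), 1 between sublines and untreated cells (7.26% of all) and 2 between treated and untreated parental cells (12.4% of all). By their brightest probes, 4 genes were not dim, namely the ligands EFNA4 and EFNB3 and the receptors EPHA8 and EPHA10. EFNB3, the brightest of these 4, read 9.43 and 9.47 in untreated cells. It read 9.82, 10.07 and 9.94 in parental cells in dasatinib, pazopanib and sunitinib, above both untreated arrays. DasR read 9.34, PazR 9.79 and SunR 9.02 for EFNB3, all below the treated parental arrays, and the difference from them was -0.56 (limma adjusted p = 0.225, n = 3 and 3). EPHA8 was also lower without overlap, at 7.20 to 7.22 in the sublines and 7.31 to 7.55 in treated parental cells. In this comparison the groups did not overlap for 3 of the 24 probes (12.5%), beside 25.6% of all probes. EPHB1, a receptor for B-type ephrins singled out after its values were seen, was dim by its mean but read 8.39 in SunR, against 6.32 to 6.50 in the other 7 arrays. EPHB1 did not pass between sublines and treated parental cells (adjusted p = 0.436).

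Of the 36 probes of the family, EPHA4 and EPHB1 stood over 1 above the 7 other arrays in SunR, as did 0.368% of all probes. None did so in DasR or PazR, where 0.0748% and 0.0187% of all probes did, and none stood over 1 below them in DasR, PazR or SunR, where 0.179%, 0.0104% and 0.0457% of all probes did. EPHA2 was 0.72 above the other arrays in SunR. EPHB1 and EPHA4 stood further above them, but from signals at or near the dim level, so that their distance has no measured size. EFNB3 was 0.31 below the other arrays in SunR and EFNA1 0.52.

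**Figure D4:**
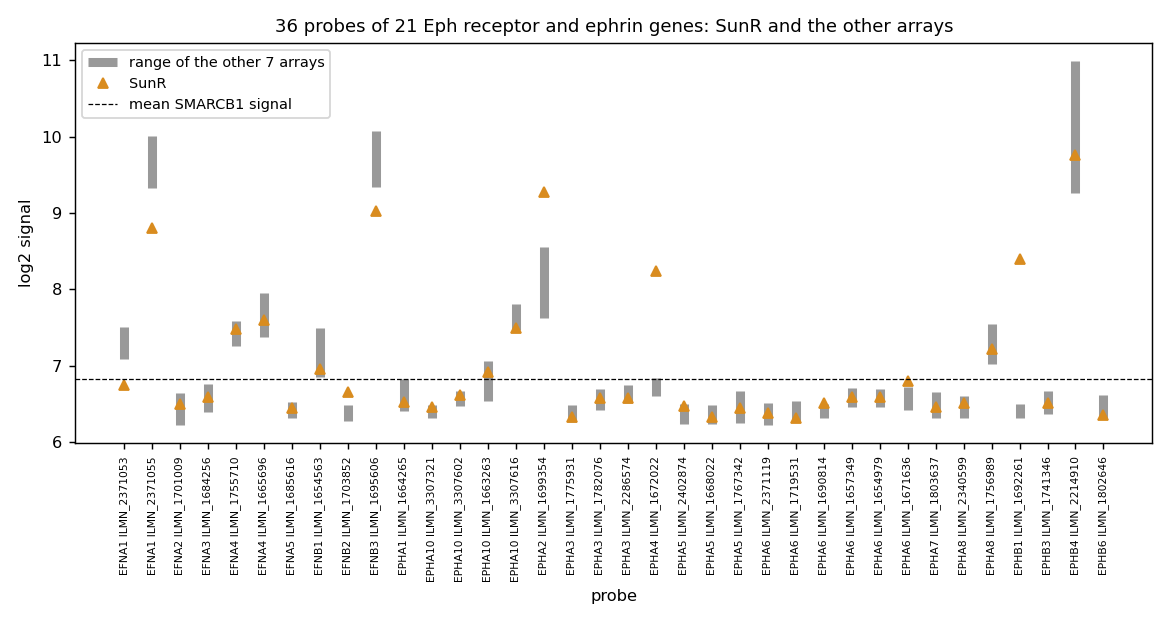
Log2 signal (y axis) of the 36 probes of the 21 family genes with a probe (x axis). Grey bars span the 7 arrays other than SunR, triangles are SunR and the dashed line is the mean SMARCB1 signal (6.82). SunR lies far above the bars for EPHA4, EPHB1 and EPHA2, at 8.24, 8.39 and 9.28.

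Signaling partners of Eph receptors and ephrins were counted from a list of 48 genes, of which 44 had a probe. By brightest probe, 2 were higher and 2 were lower in sublines than in treated parental cells, beside 701 and 768 of 20046 genes. Over all 92 partner probes 8.70% passed, against 6.04% of all probes, and 29 of the 92 had an unadjusted p under 0.05, against 20.5% of all probes. By brightest probe 34 of the 44 partner genes were not dim, against 10792 of 20046 genes. The partners were thus brighter than the array as a whole, and these shares do not compare like with like. PTPRF, a receptor tyrosine phosphatase, rose by 1.34 (log2, SE 0.32, limma adjusted p = 0.0313, n = 3 and 3), and ARHGEF16, an exchange factor that binds EPHA2, rose by 0.84 (adjusted p = 0.0306). ABL1, a cytoplasmic tyrosine kinase and dasatinib target, fell by 0.96 (adjusted p = 0.0351), and DVL2, a dishevelled protein, fell by 0.70 (adjusted p = 0.0396). The second probe of PTPRF stood at 0.56 and did not pass. In untreated replicates 1 and 2, the called PTPRF probe read 10.54 and 10.55, against 9.12 to 10.32 in treated parental cells and 10.62 to 11.32 in the sublines. ARHGEF16 read 7.94 and 7.89 in untreated cells, 6.75 to 7.41 in treated parental cells and 7.52 to 8.14 in the sublines, so the sublines overlapped with untreated cells and treated parental cells were the low group. ABL1 read 9.71 and 9.93 in untreated cells, between the sublines (9.03 to 9.62) and treated parental cells (10.18 to 10.44). DVL2 read 8.09 and 8.65 in untreated cells, 8.11 to 8.26 in the sublines and 8.80 to 8.98 in treated parental cells, so the untreated replicates of DVL2 lay on either side of the sublines. Of these 4 calls, none held without each array in turn, with adjusted p up to 0.138 for PTPRF, 0.151 for ARHGEF16, 0.117 for ABL1 and 0.139 for DVL2. Each of the 4 ended without dasatinib-treated or pazopanib-treated parental cells or without PazR, those of ARHGEF16, ABL1 and DVL2 also without DasR, and those of PTPRF, ABL1 and DVL2 also without SunR. The calls of PTPRF (adjusted p = 0.0635) and ARHGEF16 (0.0789) also ended in limma without a trend, and that of DVL2 (0.0564) with all 8 arrays in one fit. No partner passed in limma in either comparison with untreated cells. In each, 9 of the 92 probes had an unadjusted p under 0.05, beside 7.26% of all probes for the sublines and 12.4% for treated parental cells.

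The other 4 partner genes, ROCK1, CDC42, PTK2 and ROCK2, passed by a probe that was not their brightest. ROCK1, a serine/threonine kinase of the actin cytoskeleton, rose by 1.05 by one probe (adjusted p = 0.000366, limma) and stood at -0.20 by its brighter one. The called ROCK1 probe read 7.45 to 7.58 in the sublines and 6.34 to 6.64 in treated parental cells. In untreated cells it was at 7.52 for replicate 1 and 6.52 for replicate 2, so these arrays stood nearly as far apart as the groups compared. CDC42, a small GTPase, was higher by 1.07 by one probe (limma adjusted p = 0.00871) and stood at 0.10 by its brightest. The called CDC42 probe read 9.22 and 8.52 in untreated replicates 1 and 2. It read 7.59 to 7.97 in treated parental cells and 8.53 to 8.98 in the sublines. The sublines thus lay between the untreated replicates, and treated parental cells were the low group. PTK2, the focal adhesion kinase, was higher by 0.62 (limma adjusted p = 0.0177), and stood at 0.44 by its brighter probe. The called PTK2 probe read 7.25 and 6.83 in untreated replicates 1 and 2. It read 6.89 to 6.92 in treated parental cells and 7.28 to 7.76 in the sublines. Untreated replicate 1 thus lay near the lowest subline and replicate 2 near treated parental cells. ROCK2, a close relative of ROCK1, fell by 0.84 (adjusted p = 0.0477), and stood at 0.25 by its brighter probe. The called ROCK2 probe read 9.27 and 10.06 in untreated replicates 1 and 2, again nearly as far apart as the groups compared. The ROCK1 call held without each array in turn (adjusted p up to 0.00434). Those of CDC42, PTK2 and ROCK2 ended without dasatinib-treated or pazopanib-treated parental cells, those of PTK2 and ROCK2 also without PazR, and that of ROCK2 also without DasR or SunR, with all 8 arrays in one fit (adjusted p = 0.0742) and with 50 added to the linear intensity (0.0528). With the term for arrays grouped by untreated replicate, which rests on 1 untreated array against the other, none of the 8 partner probes passed, and ROCK1 stood at 0.04.

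The genes whose signal followed EPHB4 most closely over the 8 arrays were RHBDD3 (Pearson r = 0.984), AKAP17A (0.978) and M1AP (0.977), among 17362 brighter probes with a single symbol. Those most like EFNB1, which among the ephrins EFNA1, EFNB1 and EFNB2 had the largest difference by brightest probe between sublines and treated parental cells, were FBXO46 (r = 0.980), PRR5 (0.980) and BAIAP2 (0.980). Over 8 arrays that fall into 3 groups and share quantile normalization, such values were not confined to these genes. Of the 17362 probes, 370 had an r over 0.9 with EPHB4 and 222 with EFNB1.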

How the data were processed

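RNA of A204 cells was measured on 8 Illumina HumanHT-12 v4 arrays in 3 groups given by the labels. The authors pre-processed the signals with beadarray, and the deposited table holds log2 intensity, quantile normalized. How background was treated is not given in the sources used here, and the table used here holds no detection p-values. Probes were named through the platform annotation, updated by Entrez ID. Of 48107 probes, 30113 had 1 symbol, 8 several and 17986 none, and all stayed in the tests. Each probe was tested two-sided with limma 3.58.1 under R 4.3.3, using lmFit and eBayes with its trend option. P-values were adjusted by the Benjamini-Hochberg method across the whole table, and those under 0.05 passed. Sublines and treated parental cells were compared over their 6 arrays, and untreated cells entered a fit of all 8 arrays. The fit was tested on simulated data drawn independently for each array, so without drug pairing or likeness between arrays. The study ranked genes by Signal2Noise, which was run as an alternative.

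All members and their probes are named, a gene is represented by its probe of highest mean, and partners are named where a probe passed. Members, lists and alternatives were chosen with earlier results of these data known. Pairing by drug was checked on deviations from group means, with a correlation over all probes of 0.126 (dasatinib), 0.184 (pazopanib) and 0.199 (sunitinib), so blocking on the drug was among the alternatives. A further one took as a term the untreated replicate that each array resembles, with treated parental arrays beside replicate 2 and sublines beside replicate 1. Only the untreated pair separates this term from the comparison. Others left out single arrays or changed the trend, filter, offset or normalization. Upstream sequences came from RefSeq (GRCh38.p14), where all 10 members matched.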

Additional observations from a re-analysis of the deposited data

Results flagged for a closer look

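EPHB4 differed in its change from untreated cells between the resistant sublines and treated parental cells. The untreated arrays cancel in that difference, so it is the comparison of sublines with treated parental cells already given and no further result. It was -1.26 on the log2 scale (limma, adjusted p = 0.0119, n = 3 and 3), with -0.30 for the sublines and 0.96 for treated parental cells against the same untreated arrays. All 3 sublines stood below the untreated mean, by 0.02 in SunR to 0.51 in PazR, and all 3 treated parental arrays stood above it. The call ended without dasatinib-treated (adjusted p = 0.0796) or pazopanib-treated parental cells (0.0688), without PazR (0.0633) and with the term for arrays grouped by untreated replicate (0.973). Groups of 2 and 3 arrays were too small to test for an outlying array within a group.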

How the results depend on the processing

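The count of 1 called member probe between sublines and treated parental cells ranged from 0 to 2 when single arrays were left out, and it was 0 when the grouping of arrays by untreated replicate entered limma as a term. EPHB4 then stood at -1.15 (SE 0.48, adjusted p = 0.973), the SE being 0.24 without the term. That grouping was taken from these data and is separated from the comparison only by 1 untreated array against the other, so few calls could remain. EPHB4 was -1.13 to -1.41 without single arrays, and adjusted p was 0.00311 to 0.0153 under the other settings, including 0.0136 with the drug as a replicate block, which changed no call of a member. No member passed against untreated cells under any of the 15 alternatives in each of those comparisons. For the brighter EFNA1 probe the direction turned, at -0.056 with the array grouping as a term and, without single arrays, at -0.10 to 0.49 between sublines and treated parental cells, -0.083 to 0.51 between sublines and untreated cells and -0.067 to 0.11 between treated and untreated cells. EPHA2 was -0.18 to 0.38 between sublines and untreated cells without single arrays.

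The count over all probes between sublines and treated parental cells, 2906, was 1032 to 3890 without single arrays and 1 with the array grouping as a term. Between sublines and untreated cells 133 became 58 without a trend, 67 with the arrays of these groups alone and 35 to 446 without single arrays. Between treated and untreated cells 2 became 0 without a trend or among the brighter 50% of the probes, and 0 to 580 without single arrays. By Signal2Noise EPHB4 (-2.37) ranked 1244 of 48107 from the lowest. Student's t-test, which the paper names for its figures, called 1 of 12 member probes unadjusted (8.33%), against 17.2% of all probes. Adjusted, it called 0 member probes, against 39 of all. Dim probes limit what can be said of EPHA3, EPHA7, EPHB3 and EFNB2, and EPHB4, EPHA2, EPHA4 and EFNB1 rest on 1 probe each.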
